A study of Homo sapiens with 6 samples.

Results

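The 10 genes EZH1, EZH2, SUZ12, EED, JARID2, BMI1, PCGF2, RING1, RNF2 and CBX8 encode subunits of the Polycomb repressive complexes PRC1 and PRC2. They were chosen by gene symbol, with earlier results of these data known, and are 10 of the 28008 genes in the deposited count table. The rule that picked them did not use their values. Total RNA was sequenced as mRNA libraries from 6 cultures of DU-145-DR cells, a derivative of the prostate cancer line DU-145 selected for resistance to docetaxel (DTX). The cells carry a tetracycline-inducible hairpin against MUC1 (tet-MUC1shRNA). The 3 DOX-negative libraries came from cells given DMSO vehicle, and the 3 DOX-positive libraries from cells given 500 ng/ml doxycycline (DOX) for a week to induce the hairpin. The labels name only DTX resistance for the DOX-negative libraries and only the hairpin for the DOX-positive libraries, and the study and the shared sample titles place both in the same resistant line. Cells with a control hairpin under DOX were not analysed here, so the silencing of MUC1 and the exposure to DOX cannot be told apart. Cultures were grown in triplicate from a single selected line, and the p-values measure the spread between those cultures.

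PRC2 methylates lysine 27 of histone H3, a mark of silent developmental genes. EZH2 or its paralog EZH1 is the catalytic subunit, SUZ12 is the scaffold, EED binds the finished mark and stimulates the enzyme, and JARID2 is an accessory subunit that helps to bring the complex to chromatin. PRC1 ubiquitinates histone H2A through RNF2 or its paralog RING1, each paired with a PCGF protein such as BMI1 (PCGF4) or PCGF2, and its canonical forms bind methylated H3 through a CBX protein such as CBX8. In prostate cancer, EZH2 is often abundant and is linked to neuroendocrine plasticity, and BMI1 is a marker of self-renewing cells. The comparison asks which of these subunits changed in transcript level when MUC1 was silenced.

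BMI1 was the only member that passed the threshold, and its transcripts were lower in DOX-positive cells. Fold changes below are DOX-positive over DOX-negative on the log2 scale, from edgeR's quasi-likelihood test, with p-values adjusted by Benjamini-Hochberg over all 14292 genes tested, and a gene was called at an adjusted p under 0.05. All 10 members passed the filter on low counts. Of these, 1 (10%) was called, against 26.7% of all genes tested. By direction, 0 members were called higher, against 13% of all genes, and 1 was called lower, against 13.7%. At an unadjusted edgeR p under 0.05 there were 2 members, BMI1 and EZH2, against 37.9% of all genes tested. DESeq2 also called BMI1 alone. The median log2 fold change was 0.026 over the members and -0.0034 over all genes tested. The groups did not overlap for 3 members, BMI1, EZH2 and JARID2, against 39.8% of all genes tested. The share called among the members was thus below that of the transcriptome. In bulk RNA, fewer cells that express a gene and less RNA per cell cannot be told apart.

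Library totals ranged from 15092691 counts in DOX-positive replicate 3 to 23243713 counts in DOX-positive replicate 1. MUC1, which checks the labels, had 387, 484 and 396 counts without DOX and 75, 74 and 66 counts with DOX. Counts of KLK3, which encodes prostate-specific antigen, were 0 throughout, which in the shallowest library allows a level of up to 0.202 CPM (counts scaled to a common library size). The epithelial markers KRT8, KRT18 and EPCAM were detected in every library and rose with DOX, with log2 fold changes of 0.84, 0.81 and 1.43. Of 11 markers of neuroendocrine, immune, endothelial and stromal cells, CHGA and CD3E were at 0 counts in all libraries, and 8 failed the filter on low counts. The summed level of the 11 was 96.3 to 112 CPM without DOX and 164 to 186 CPM with DOX, and without CD68 it was 4.91 to 5.61 and 5.05 to 6.63 CPM. CD68, which many cell types express, was the only one of the 11 called (0.75, edgeR adjusted p 8.39e-08).

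A short sequence picked on these data occurs in BMI1 and EZH1 and not in the other members. The heptamer ATCAGTA was picked in an earlier scan of the 3′UTRs of these same data because genes holding it were often lower with DOX. In the principal GENCODE 29 transcripts none of the 10 members holds it in the 3′UTR, whereas 9.77% of 12376 tested genes do. BMI1 and EZH1 each hold 1 copy in the coding sequence. A copy outside the 3′UTR only was thus held by 20% of the members, against 7.08% of the tested genes. In the wider Polycomb set described below, 9 of 58 genes hold it in the 3′UTR. Of these, PCGF5, PHC3, SCML2 and MYSM1 were not called, and their windows are not printed. The windows below are the copies in BMI1 and EZH1, with 3′UTR copies in called wider Polycomb genes for comparison. Of the latter, 4 were called lower (LCORL, MBD5, RBBP4 and FOXK1) and 1 was called higher (LCOR). MBD5 holds 2 copies in the 3′UTR and 2 in the coding sequence, and 1 of its 3′UTR copies is printed. Each window runs 5′ to 3′ along the transcript, with the heptamer in capitals and with coordinates on GRCh38. The plus strand carries the windows of BMI1 (chr10:22329495-22329523), MBD5 (chr2:148514025-148514053), RBBP4 (chr1:32681602-32681630), FOXK1 (chr7:4770208-4770236) and LCOR (chr10:96988529-96988557), and the minus strand carries those of EZH1 (chr17:42720369-42720397) and LCORL (chr4:17842698-17842726).
BMI1 coding sequence: cctcgaaaatcATCAGTAaatgggtcatc
EZH1 coding sequence: cgatgccctgaATCAGTActcagatgagg
LCORL 3′UTR: agaattattctATCAGTAtgtaagtgtag
MBD5 3′UTR: catatccattcATCAGTAttacttaaccc
RBBP4 3′UTR: ggtgcattgagATCAGTAtcaacagcaga
FOXK1 3′UTR: ttttttttttaATCAGTAacaatgggaat
LCOR 3′UTR: tcagataggtcATCAGTAaaaggcatcac

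Among the 9 wider Polycomb genes with the heptamer in the 3′UTR, 4 were called lower and 1 higher. Among the 6 with a copy elsewhere only, 1 (BMI1) was called lower and 0 higher, with a median log2 fold change of 0.060. Among the 43 with no copy anywhere in the transcript, 3 were called lower and 4 higher. Over all tested genes, 32.6% of the 1209 with a 3′UTR copy were called lower, against 22.0% of the 876 with a copy elsewhere only, the class of BMI1 and EZH1, and 12.3% of the 10291 with no copy. Since the heptamer was chosen on these fold changes, these shares describe it and do not test it. BMI1 was called lower with its copy outside the 3′UTR, and EZH1, also with a coding copy, was not called. What part the heptamer has in any of these changes was not tested.

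Promoter windows of the members held few matches to 2 kinds of motif, with 1 match in BMI1 and 1 in EZH2. The E-box CACGTG, the site bound by MYC and related factors, and the E2F-type sites TTTGGCGC and TTTCGCGC, bound by the factors that drive the cell cycle, were searched on both strands in RefSeq windows of 300 bases on GRCh38.p14. Such windows matched 9 of the 10 members (CBX8 was not matched). BMI1, EZH2 and JARID2 had 2 windows each, and the other matched members had 1 each. The E-box occurred in 1 window of BMI1 and in no window of another member, and in 7.26% of 35116 promoter windows. An E2F-type site occurred in 1 window of EZH2 and in no window of another member, and in 1.15% of all windows. The other window of BMI1 and the other window of EZH2 held neither motif. The shares over all windows are per window and not per gene, so a member with 2 windows had more chances of a match. A match is a description of the sequence and not a bound site. MYC transcripts were higher with DOX, at a mean of 121 CPM without and 188 CPM with DOX. These values are RNA, and the study reported less MYC protein on immunoblots of these cells when MUC1 was silenced. The log2 fold change of MYC was 0.64 (edgeR adjusted p 1.02e-06), and any part of MYC in the BMI1 change was not tested. The BMI1 window is chr10:22320849-22321148 on the plus strand, and the EZH2 window is chr7:148884242-148884541 on the minus strand. Both are printed along the strand of the gene with the motif in capitals.
BMI1 promoter: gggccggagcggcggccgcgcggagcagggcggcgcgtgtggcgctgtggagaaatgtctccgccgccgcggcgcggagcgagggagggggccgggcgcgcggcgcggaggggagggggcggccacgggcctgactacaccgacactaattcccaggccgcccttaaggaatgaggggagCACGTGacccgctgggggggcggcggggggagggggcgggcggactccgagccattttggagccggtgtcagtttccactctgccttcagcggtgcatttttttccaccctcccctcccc
EZH2 promoter: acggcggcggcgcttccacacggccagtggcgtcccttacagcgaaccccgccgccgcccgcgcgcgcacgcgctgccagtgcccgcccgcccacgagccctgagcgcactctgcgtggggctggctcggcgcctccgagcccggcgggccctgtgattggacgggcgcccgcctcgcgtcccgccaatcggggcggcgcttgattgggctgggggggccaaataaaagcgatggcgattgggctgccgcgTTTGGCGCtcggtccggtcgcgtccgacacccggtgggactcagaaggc

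BMI1, the PCGF subunit of a canonical PRC1, had 153, 159 and 191 counts without DOX, compared with 122, 124 and 92 counts under DOX. Scaled with TMM factors these were 8.42, 8.13 and 9.50 CPM without DOX and 5.32, 6.48 and 6.19 CPM with DOX. Each DOX-positive library was below each DOX-negative library. The mean fell from 8.68 ± 0.723 CPM to 5.99 ± 0.604 CPM (SD, n = 3 per group), with a change of -0.54 in log2 units (SE 0.153, adjusted p 0.0113 by edgeR), or 0.687 times the DOX-negative level with a 95% interval of 0.551 to 0.856 times. The call rested on 2 of the libraries: the edgeR adjusted p was 0.0540 without DOX-negative replicate 3, the highest of its group, and 0.0654 without DOX-positive replicate 1, the lowest of its group. The gene lies on the plus strand of chromosome 10 (22321211 to 22331484, GRCh38, as for the members below), where 1000 of its 4283 exonic bases are shared with the COMMD3-BMI1 readthrough gene. That readthrough gene was listed at 0 counts in all 6 libraries, and its upstream partner COMMD3 changed by 0.0050 (SE 0.145, edgeR adjusted p 0.985). How reads in the shared bases were assigned is not given in the sources used here. If such reads were left out, the level of BMI1 would be understated.

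PCGF2 (chr17:38733897-38749817, minus strand), the closest paralog of BMI1, did not pass the threshold. It had 60.7, 58.0 and 68.1 CPM without DOX and 56.1, 61.3 and 61.0 CPM with DOX. The groups overlapped, and the log2 fold change was -0.067 (SE 0.0798, edgeR adjusted p 0.581; 95% interval -0.23 to 0.098). Its sign was not settled, at 0.0030 without DOX-negative replicate 3. On the opposite strand, 1148 of the 3511 exonic bases of PCGF2 are shared with CISD3, and whether the counting used strand is not given in the sources used here.

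The ratio of BMI1 to PCGF2 within each library does not depend on how libraries are scaled. On the log2 scale of the deposited TPM, which also divides by gene length, it was -2.20, -2.19 and -2.19 without DOX and -2.75, -2.60 and -2.65 with DOX. The ratio was nearly equal in the 3 DOX-negative libraries and was lower in each DOX-positive library. The difference was -0.47, or 0.720 times the DOX-negative ratio, with a p of 0.1 in a two-sided exact permutation test, the smallest p that 3 against 3 allows. Over the 3 paralog pairs tested the adjusted p was 0.300.

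The ligases RNF2 (chr1:185045364-185102608, plus strand) and RING1 (chr6:33208495-33212722, plus strand), which carry the ubiquitinating activity of PRC1, showed no called change. RNF2 had 94.9, 78.6 and 103 CPM without DOX and 87.8, 91.4 and 86.1 CPM with DOX. RING1 had 30.8, 29.3 and 31.7 CPM without DOX and 34.8, 32.1 and 30.5 CPM with DOX. The groups overlapped for both genes, and RNF2 was more variable among the DOX-negative libraries than among the DOX-positive ones, with an SD of 12.5 against 2.71 CPM. RNF2 changed by -0.060 (SE 0.0833, edgeR adjusted p 0.644; 95% interval -0.23 to 0.11) and RING1 by 0.088 (SE 0.0893, edgeR adjusted p 0.510; 95% interval -0.097 to 0.27). Without DOX-negative replicate 3 the sign of RNF2 turned to 0.029. The log2 ratio of RNF2 to RING1 was 3.26, 3.06 and 3.33 without DOX and 2.97, 3.14 and 3.13 with DOX, a difference of -0.14 with a two-sided exact permutation p of 0.3 (adjusted over the 3 pairs, 0.450).

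CBX8 (chr17:79792132-79801683, minus strand), a chromodomain reader of canonical PRC1, was the member with the fewest counts. It had 36, 75 and 52 counts without DOX and 78, 56 and 68 counts with DOX, or 1.98, 3.84 and 2.59 CPM against 3.40, 2.93 and 4.57 CPM. The ranges overlapped. The log2 fold change was 0.35 (SE 0.256, edgeR adjusted p 0.333), and its 95% interval of -0.18 to 0.89 spans a fall as well as a rise. Without DOX-negative replicate 1 the change was 0.16, and without DOX-negative replicate 2 it was 0.65 (edgeR adjusted p 0.101).

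EZH2 (chr7:148807383-148884321, minus strand), the main methyltransferase of PRC2 in dividing cells, lay close to the threshold. It had 157, 145 and 155 CPM without DOX and 171, 169 and 168 CPM with DOX. The DOX-positive libraries all lay above the DOX-negative ones, and the DOX-positive values lay within a narrow range. The means were 152 ± 6.32 and 169 ± 1.62 CPM (SD, n = 3 per group), a difference of 0.15 in log2 units (SE 0.0626), with an unadjusted p of 0.0240 and an adjusted p of 0.0771 by edgeR. The 95% interval of 0.022 to 0.28 corresponds to 1.02 to 1.22 times the DOX-negative level. In the deposited TPM with a pseudocount of 1, the median of all genes moved by -0.35, and EZH2 had a log2 fold change of -0.24, also not called.

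EZH1 (chr17:42700275-42745049, minus strand), the paralog with weaker catalytic activity, had 47.6, 45.5 and 43.1 CPM without DOX and 47.8, 57.8 and 45.0 CPM with DOX. DOX-positive replicate 2 stood above the other 5 libraries, which overlapped. The log2 fold change was 0.15 (SE 0.0910, edgeR adjusted p 0.249; 95% interval -0.042 to 0.34), and without DOX-positive replicate 2 it was 0.033. The log2 ratio of EZH2 to EZH1 was 2.40, 2.35 and 2.52 without DOX and 2.52, 2.23 and 2.57 with DOX. The ratio differed between the groups by 0.015, less than the SD within either group (0.0885 without DOX and 0.186 with DOX).

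SUZ12 (chr17:31937018-32001045, plus strand) and EED (chr11:86244544-86278813, plus strand), which complete the catalytic core of PRC2, did not pass the threshold. SUZ12 had 224, 213 and 217 CPM without DOX and 203, 215 and 219 CPM with DOX. EED had 35.9, 35.1 and 40.4 CPM without DOX and 35.3, 34.2 and 34.6 CPM with DOX. For EED, 2 of the 3 DOX-positive libraries were below every DOX-negative library, and for SUZ12 the groups were interleaved. SUZ12 changed by -0.037 (SE 0.0611, edgeR adjusted p 0.708), with a 95% interval from 0.893 to 1.06 times the DOX-negative level. EED changed by -0.099 (SE 0.0862, edgeR adjusted p 0.436), with an interval from 0.825 to 1.06 times. The pseudogene SUZ12P1, which can share reads with SUZ12, had from 369 to 582 counts and changed by -0.081 (SE 0.0976, edgeR adjusted p 0.587).

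JARID2 (chr6:15246296-15522040, plus strand), the accessory subunit among the members, had 37.8, 35.5 and 33.0 CPM without DOX and 40.1, 37.9 and 40.5 CPM with DOX. The DOX-positive libraries all lay above the DOX-negative ones, although DOX-positive replicate 2 exceeded DOX-negative replicate 1 only slightly. The log2 fold change was 0.16 (SE 0.0851, edgeR adjusted p 0.185; 95% interval -0.020 to 0.33), not past the threshold.

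**Figure D1:**
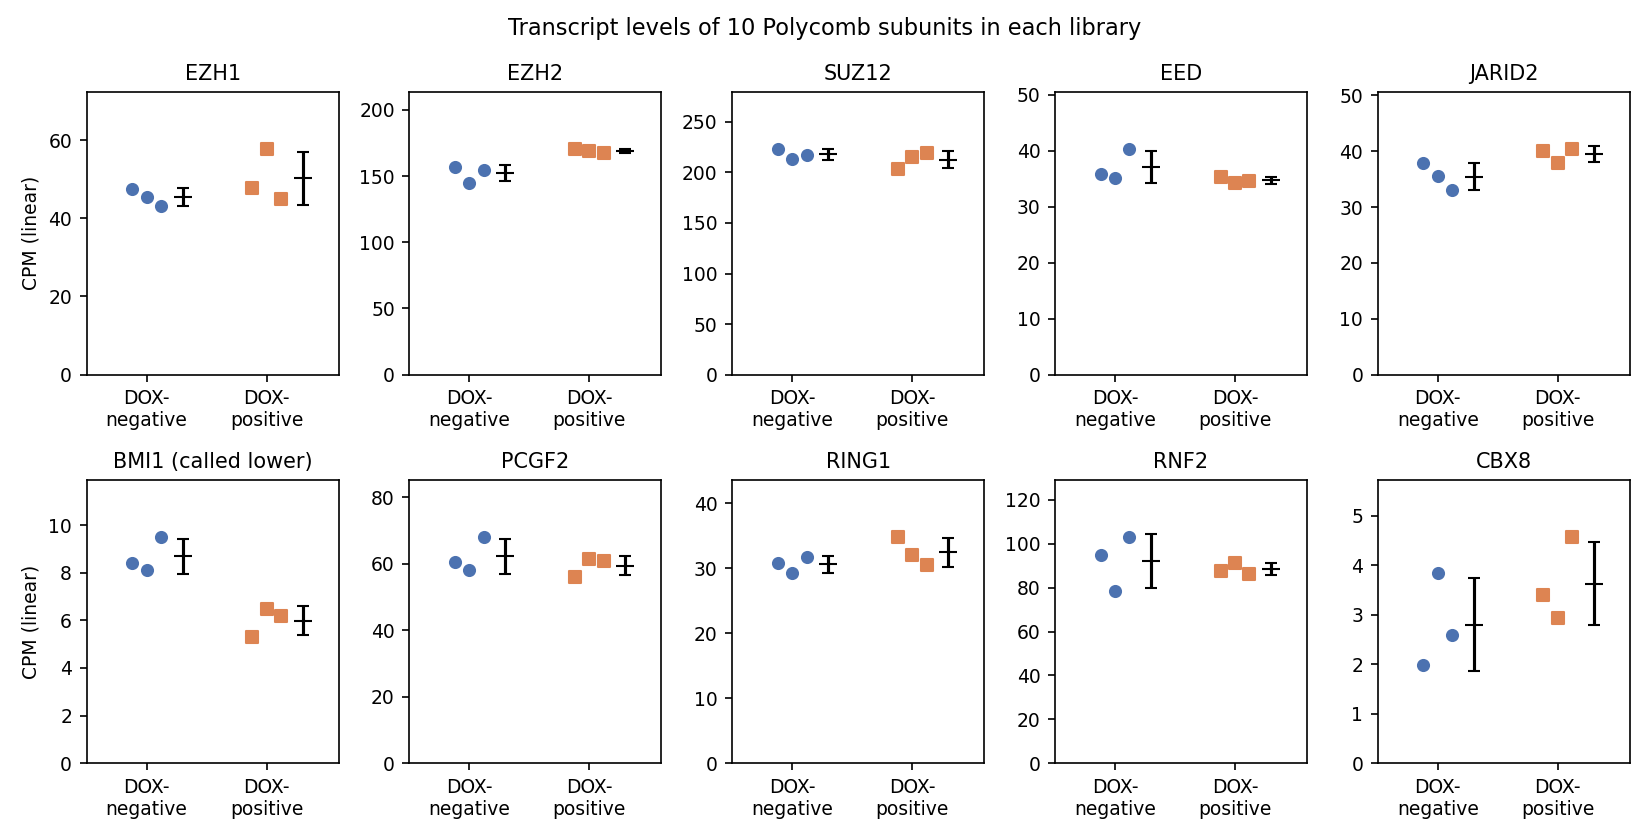
Transcript levels of the 10 Polycomb subunits, in CPM (linear axes from 0), for each DOX-negative (blue circles) and DOX-positive (orange squares) library, with the mean and SD beside the points (n = 3 each). BMI1 was the only gene called, and its DOX-positive libraries (5.32 to 6.48 CPM) all lay below its DOX-negative libraries (8.13 to 9.50 CPM).

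Levels were set side by side per length, as CPM per kilobase of the union of GENCODE 29 exons. Across the 6 libraries EZH2 (32.1 to 37.8) and SUZ12 (31.0 to 34.1) were the highest members, and their ranges overlapped. RNF2 (19.3 to 25.3) came next, followed by PCGF2 (16.0 to 19.4) and RING1 (16.1 to 19.2). The range of PCGF2 overlapped those of both RNF2 and RING1. EZH1 (6.17 to 8.28), JARID2 (5.49 to 6.73) and EED (4.87 to 5.76) formed a lower step in which neighbours overlapped. BMI1 (1.24 to 2.22) and CBX8 (0.476 to 1.10) were the lowest as counted, and their ranges did not overlap. The lengths implied by the deposited counts and TPM, set so that the median gene had its annotated length, give a different order for some genes, since for RING1 that length was 8.17 times the union of its exons, for PCGF2 2.05 times, for EED 0.469 times and for CBX8 0.443 times. With those lengths, a choice made after seeing the data, RING1 moved from the fifth to the eighth place, EED from the eighth to the fourth, and CBX8 came before BMI1. EZH2, SUZ12 and RNF2 held the first 3 places with either length.

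Within the families of paralogs, BMI1 was a small part of the PCGF transcripts as counted, and its share was lower in each DOX-positive library. That share would be understated if reads in the bases shared with COMMD3-BMI1 were left out of the counting. The BMI1 share of the summed CPM per kilobase of the 6 PCGF genes was 2.33%, 2.44% and 2.55% without DOX and 1.55%, 1.80% and 1.78% with DOX. PCGF5, found in variant PRC1, held the largest share, from 39.7% to 43.6%, and PCGF2 held from 19.9% to 22.3%. By the length implied by the TPM, the mean share of PCGF2 was 12.4% without DOX, below those of PCGF1, PCGF3 and PCGF6, and the mean share of BMI1 was 2.72% without DOX and 1.89% with DOX. Shares of PCGF5 and PCGF2 overlapped between the groups, while those of BMI1 did not. EZH2 held from 81.9% to 85.2% of the EZH transcripts. RNF2 held from 53.0% to 59.2% of the RING transcripts by exon length, but a mean of 90.3% without DOX and 89.4% with DOX by the length implied by the TPM.

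**Figure D2:**
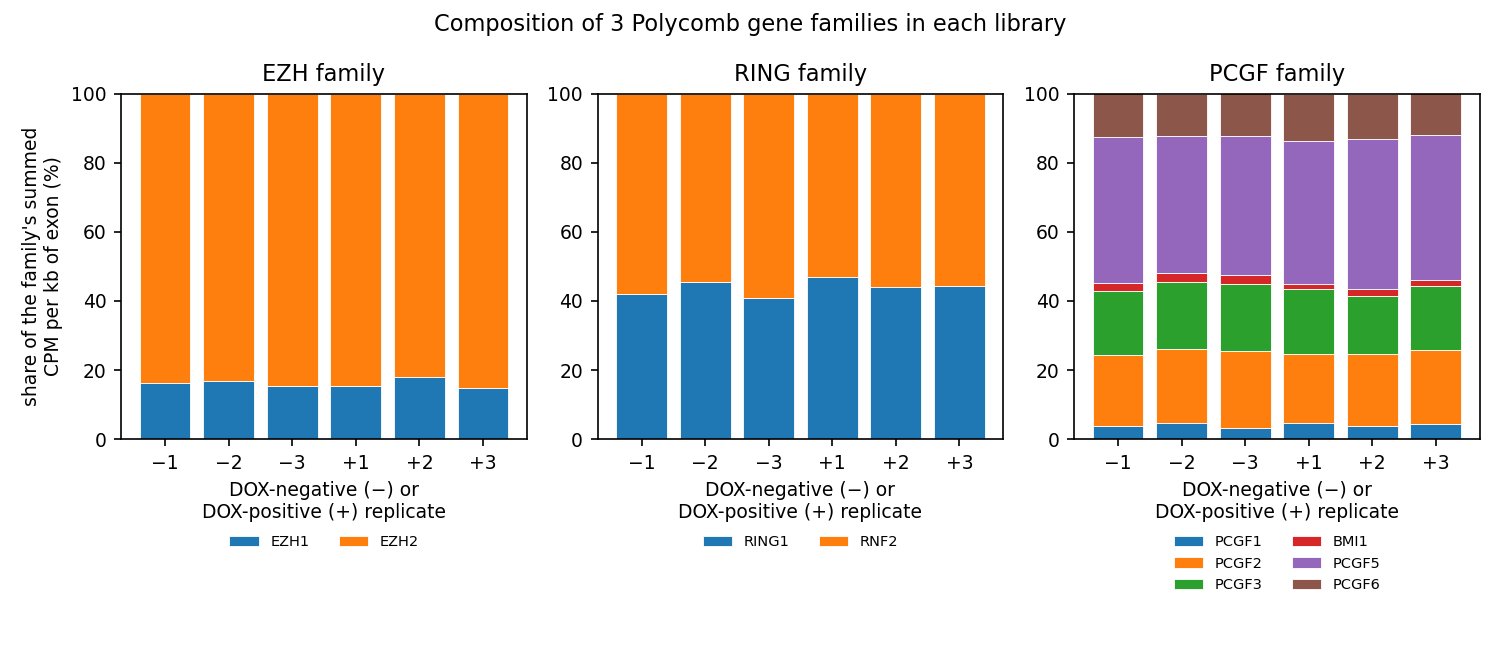
Share of each gene in its family's summed CPM per kilobase of exon (percent, stacked to 100%) in the DOX-negative (−) and DOX-positive (+) libraries, for the EZH, RING and PCGF families. BMI1 (red in the PCGF panel) held from 2.33% to 2.55% without DOX and from 1.55% to 1.80% with DOX, whereas EZH2 held at least 81.9% of the EZH transcripts in each library.

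The wider Polycomb machinery was examined through 61 genes in 6 groups, the members included, to place the members among their partners. Of these, 60 were in the table and 58 were tested. A call was made for 13 of the 58 (22.4%), against 26.7% of all genes, with 5 higher and 8 lower. Without the members the count was 12 of 48 (25%). The median log2 fold change was 0.022.

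In PRC2, the calls lay among the partners of the members. LCORL and LCOR, paralogs whose loci encode the PALI accessory subunits, moved in opposite directions. Counts were per gene and do not tell the transcripts of a gene apart. LCORL fell from 34.1 ± 2.21 CPM to 18.7 ± 0.690 CPM (SD, n = 3 per group), with a change of -0.86 in log2 units (SE 0.0949, adjusted p 5.51e-07 by edgeR). LCOR rose from 138 ± 5.67 CPM to 177 ± 10.9 CPM (SD, n = 3 per group), with a change of 0.36 in log2 units (SE 0.0665, adjusted p 0.000297 by edgeR). The direction of LCORL held under every alternative tried, and that of LCOR under each except the deposited TPM (-0.032), whose median shift was given above. LCORL shares 1631 of its 14858 exonic bases with NCAPG on the opposite strand. RBBP4, the histone chaperone that binds SUZ12, fell by 0.21 in log2 units (SE 0.0634, adjusted p 0.0188 by edgeR). It shares 1706 of its 9470 exonic bases with SYNC on the opposite strand. The RBBP4 call was lost when DOX-negative replicate 2 (0.0523) or 3 (0.0601) or DOX-positive replicate 2 (0.0708) was left out. The paralog RBBP7 had a log2 fold change of 0.046 (edgeR adjusted p 0.632). Of 6 core and histone-binding genes RBBP4 was thus the only one called (16.7%), and of 8 accessory genes tested 2 were called (25%). The share over all genes tested was 26.7%.

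In PRC1, CBX2 was called lower, as were BMI1 above and BCORL1 and WDR5 below, and 4 partners were called higher. CBX2, the chromodomain subunit that compacts chromatin, had 75, 88 and 65 counts without DOX and 33, 59 and 19 counts with DOX, with a change of -1.02 in log2 units (SE 0.286, adjusted p 0.0106 by edgeR). Its call was lost without DOX-positive replicate 1 (edgeR adjusted p 0.0597) and without DOX-positive replicate 3 (0.0511). PHC2, a polyhomeotic subunit that links PRC1 complexes, rose from 145 ± 3.64 CPM to 182 ± 9.15 CPM (SD, n = 3 per group), with a change of 0.33 in log2 units (SE 0.0639, adjusted p 0.000589 by edgeR). RYBP, which defines variant PRC1 together with its paralog YAF2, rose from 87.8 ± 2.75 CPM to 110.0 ± 2.20 CPM (SD, n = 3 per group), with a change of 0.33 in log2 units (SE 0.0666, adjusted p 0.000874 by edgeR). The YAF2 change was 0.30 (SE 0.110, edgeR adjusted p 0.0456), and that call was lost without any library other than DOX-negative replicate 1, at up to 0.245, and with DESeq2 at 0.0573. SCML1 rose by 0.24 (SE 0.0727, edgeR adjusted p 0.0162), a call lost without DOX-negative replicate 2 (0.0895). In the deposited TPM the signs of PHC2 (-0.070), RYBP (-0.067), YAF2 (-0.067) and SCML1 (-0.14) turned.

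BCORL1 and WDR5, partners of variant PRC1 of which WDR5 also serves other histone-modifying complexes, were lower. BCORL1 fell from 20.1 ± 2.01 CPM to 12.9 ± 1.76 CPM (SD, n = 3 per group), with a change of -0.65 in log2 units (SE 0.123, adjusted p 0.000421 by edgeR). WDR5 fell from 93.1 ± 4.89 CPM to 70.5 ± 3.28 CPM (SD, n = 3 per group), with a change of -0.40 in log2 units (SE 0.0721, adjusted p 0.000250 by edgeR). It shares 408 of its 3629 exonic bases with a gene on the opposite strand. Of 8 RING and PCGF genes BMI1 was the only one called (12.5%), and of 11 CBX, PHC and SCM genes 3 were called (27.3%). Of 13 variant PRC1 partners tested, 4 were called (30.8%). The share over all genes tested was 26.7%.

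Of 12 tested genes whose products remove or oppose the Polycomb marks, 2 (16.7%) were called, against 26.7% of all genes tested. These were MBD5 and FOXK1, both called lower. Both encode parts of the deubiquitinase complex built on BAP1. MBD5 had 253, 261 and 273 counts without DOX and 177, 134 and 99 counts with DOX, with a change of -0.93 in log2 units (SE 0.130, adjusted p 1.49e-05 by edgeR). FOXK1 changed by -0.21 (SE 0.0715, edgeR adjusted p 0.0337), a call that leaving out any library except DOX-negative replicate 3 removed, at up to 0.140. The H3K27 demethylases KDM6A (0.17, edgeR adjusted p 0.192) and KDM6B (0.046, edgeR adjusted p 0.747) were not called.

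**Figure D3:**
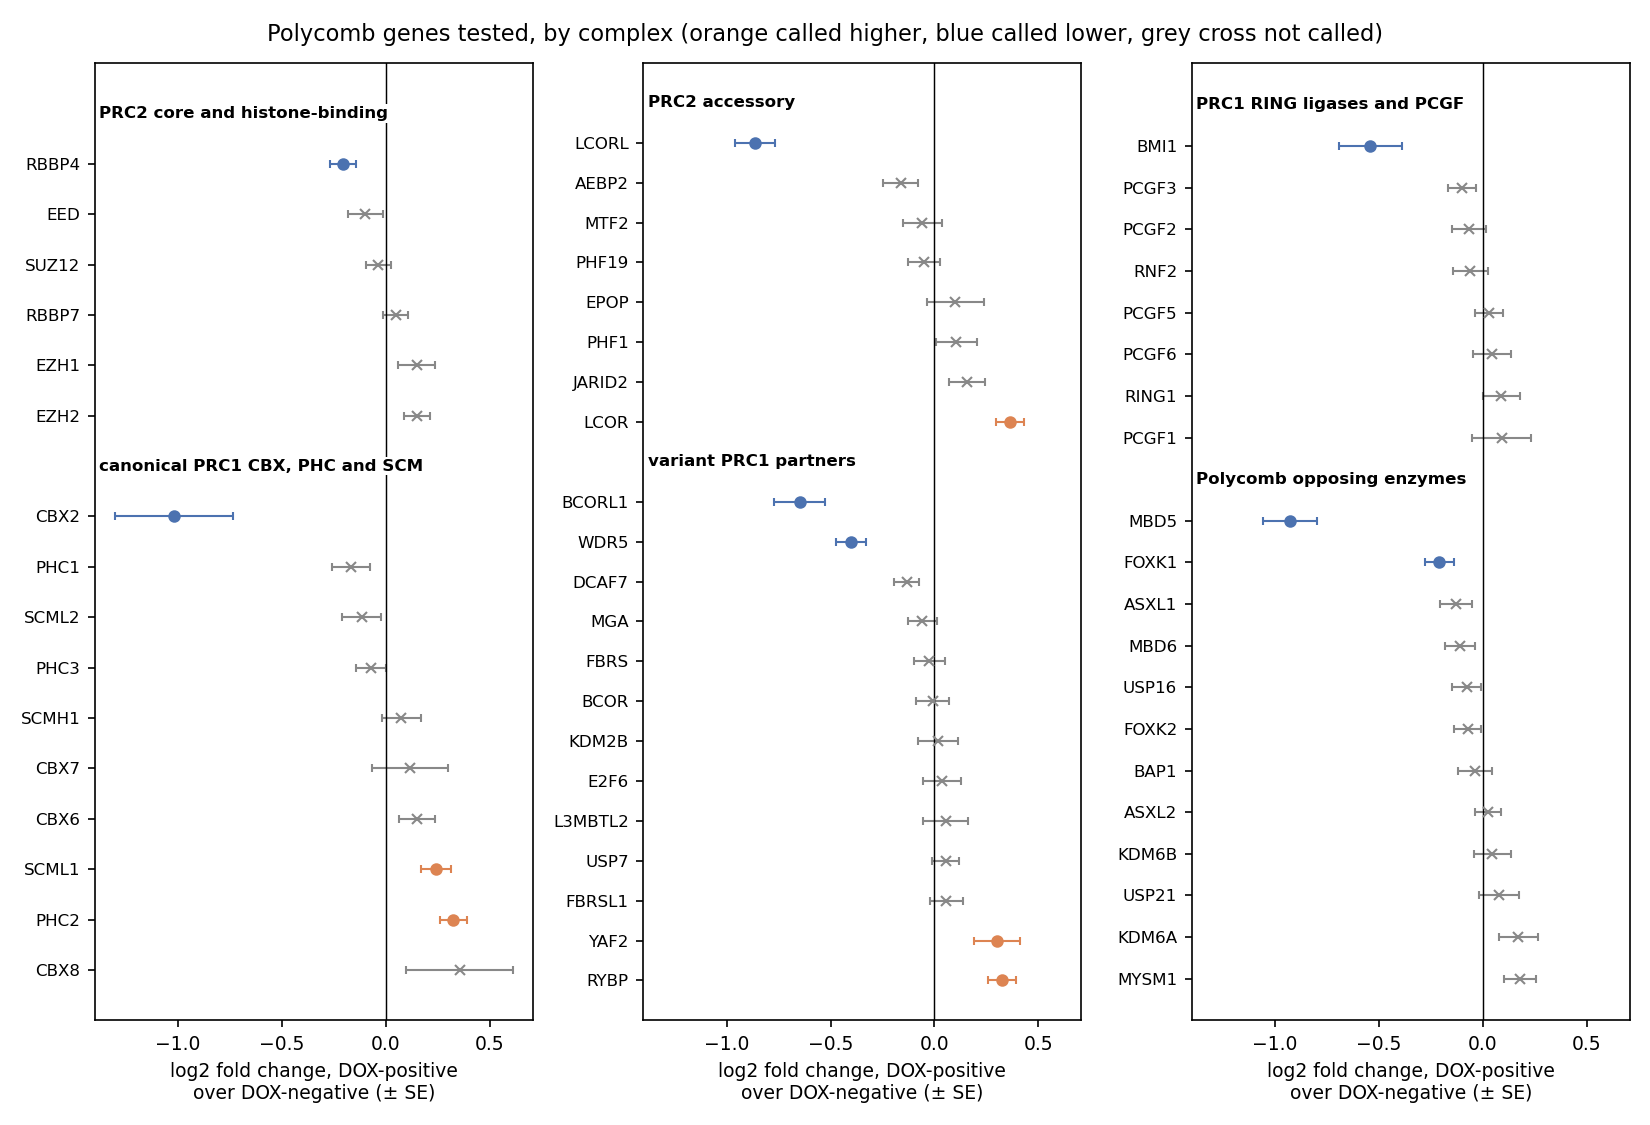
Log2 fold change (DOX-positive over DOX-negative, ± SE) of tested Polycomb genes in 6 groups (1 of the 58 is not drawn), with genes called higher in orange, called lower in blue and not called as grey crosses. LCORL (-0.86), CBX2 (-1.02), MBD5 (-0.93), BCORL1 (-0.65) and BMI1 (-0.54) lie farthest to the left, and the core subunits EZH1, EZH2, SUZ12 and EED lie between -0.099 and 0.15.

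Genes that Polycomb complexes are known to silence were then described, in lists chosen with earlier results of these data known. Of 39 HOX genes, 28 were tested, 5 were called higher and 1 lower, a share of 21.4%, with a median log2 fold change of 0.11. The 3 largest called rises were in HOXB8 (1.06, edgeR adjusted p 0.00675), HOXD1 (1.02, edgeR adjusted p 0.0103) and HOXB2 (0.89, edgeR adjusted p 0.00782), and HOXA13 fell by 0.90 on the log2 scale (edgeR adjusted p 0.0173). These 4 genes had low counts, from 18 to 109 in any library. The call for HOXB8 was lost without DOX-positive replicate 1 (edgeR adjusted p 0.0511) and that for HOXD1 without DOX-negative replicate 3 (0.0527). For HOXA13 it was lost without DOX-negative replicate 1 (0.0885), DOX-positive replicate 1 (0.0574) or DOX-positive replicate 3 (0.0833). HOXA10, named after its values were seen, had the lowest adjusted p of the list, with 241, 269 and 228 counts without DOX and 484, 355 and 342 with DOX, and rose by 0.70 (SE 0.118, edgeR adjusted p 0.000119). Its call held without any single library, with changes from 0.62 to 0.78. The share of HOX genes called was below that of all genes tested.

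Of 14 genes described as repressed by EZH2 in prostate and other cancers, 11 were tested, 2 were called higher and 0 lower, a share of 18.2% against 26.7% of all genes tested, with a median log2 fold change of -0.045. At an unadjusted p under 0.05 the edgeR test likewise held 2. CDH1, which encodes the epithelial adhesion protein E-cadherin, rose from 41.8 ± 3.81 CPM to 79.2 ± 4.94 CPM (SD, n = 3 per group), with a change of 0.92 in log2 units (SE 0.0831, adjusted p 3.01e-08 by edgeR). The other epithelial markers given above rose alongside it, and the part of EZH2 in this was not tested. KLF2, an endothelial and growth-restraining transcription factor, rose by 0.37 (SE 0.110, edgeR adjusted p 0.0161), and this call was lost without DOX-negative replicate 2 (0.0822), DOX-positive replicate 1 (0.0533) or DOX-positive replicate 3 (0.0528). CDKN2A, the INK4A/ARF locus that BMI1 represses in many cells, had 335, 305 and 364 CPM without DOX and 298, 344 and 288 CPM with DOX. The CDKN2A groups overlapped, and the log2 fold change was -0.11 (SE 0.0742, edgeR adjusted p 0.289).

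Of 50 developmental regulators that commonly carry H3K27 methylation, 30 were tested, and 5 were called higher and 5 lower. The share called was 33.3%, against 26.7% of all genes tested, with a median log2 fold change of -0.034. The largest called rises were LHX4 (1.5, edgeR adjusted p 0.0383), FOXD1 (1.14, edgeR adjusted p 3.02e-10) and SOX9 (0.72, edgeR adjusted p 3.30e-05). The largest called falls were SIX3 (-1.03, edgeR adjusted p 0.00995), TBX3 (-0.66, edgeR adjusted p 0.00506) and GATA2 (-0.65, edgeR adjusted p 0.000739). FOXD1, a forkhead transcription factor, was the most abundant of these 6, its mean being 60.5 ± 6.12 CPM without and 134 ± 1.85 CPM with DOX (SD, n = 3 per group). LHX4 had from 2 to 20 counts, and its call was lost without any library other than DOX-positive replicate 3, at up to 0.163. The SIX3 call was lost without DOX-positive replicate 3 (edgeR adjusted p 0.0598). The calls in this list were thus divided evenly between the directions.

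**Figure D4:**
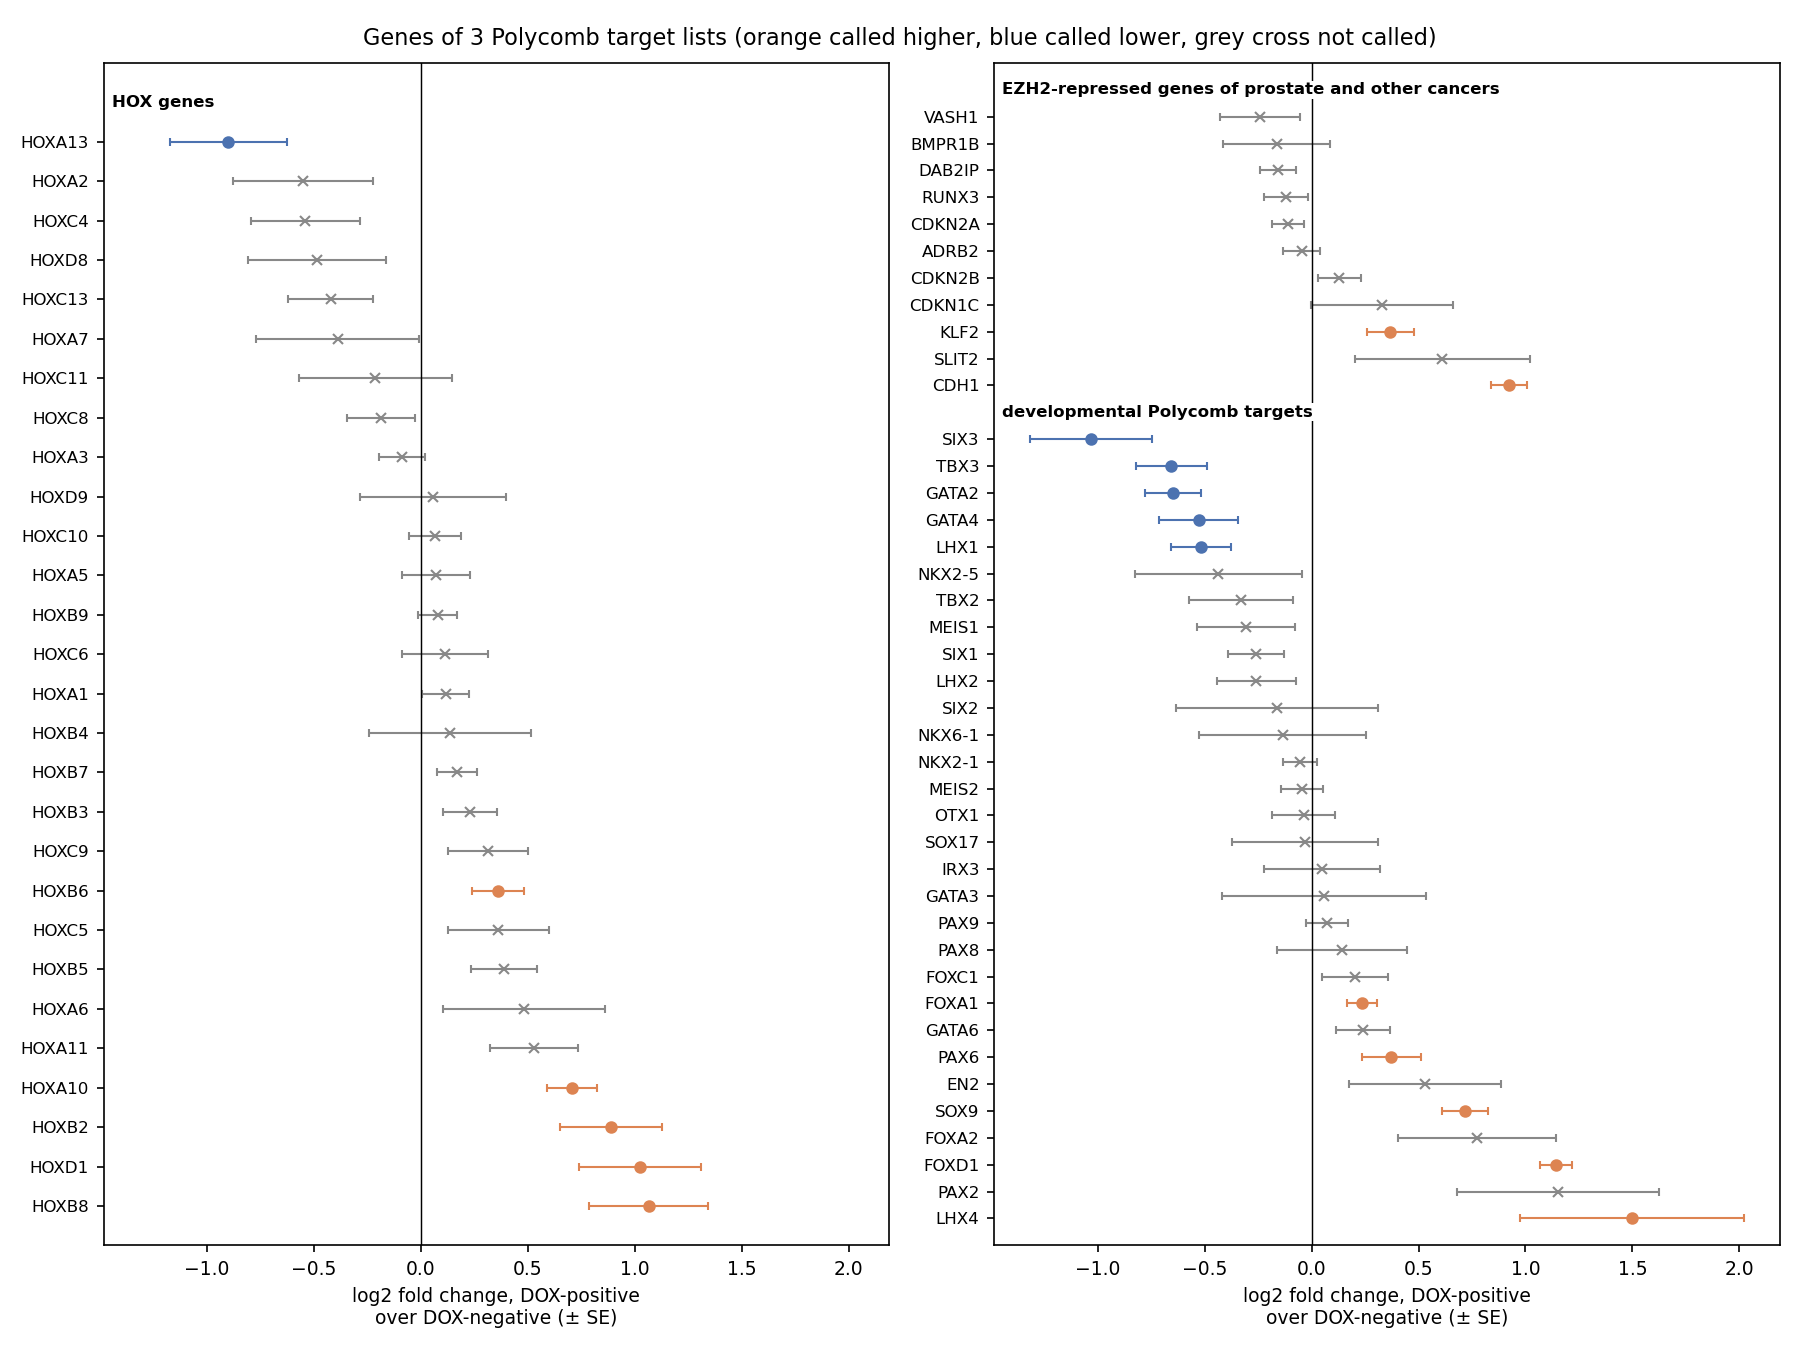
Log2 fold change (DOX-positive over DOX-negative, ± SE) of the tested genes of 3 lists of Polycomb targets, with genes called higher in orange, called lower in blue and not called as grey crosses. Called genes lie on both sides of 0, with 5 higher and 1 lower among HOX genes, 2 higher among EZH2-repressed genes, and 5 in each direction among developmental regulators.

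EZH2 and EED are known to be driven by E2F factors, so genes of that program were set beside them. Of 16 E2F and replication genes, 3 were called lower and 1 higher (25%, against 26.7% of all genes tested), with a median of -0.015. The replicative helicase subunits MCM3 (-0.26, edgeR adjusted p 0.0148), MCM4 (-0.41, edgeR adjusted p 0.000164) and MCM5 (-0.35, edgeR adjusted p 0.00265) fell. RRM2, a subunit of ribonucleotide reductase, rose by 0.20 (edgeR adjusted p 0.0349). These 4 genes were singled out after their values were seen. The call for MCM3 was lost without DOX-negative replicate 3 (edgeR adjusted p 0.0717) and without DOX-positive replicate 2 (0.0845), where its change was -0.16. RRM2 was no longer called without DOX-negative replicate 1 or 2 or DOX-positive replicate 1 or 3, at up to 0.168, and with library totals (0.0643). EZH2, at 0.15, and EED, at -0.099, were not called beside them, and E2F1 changed by 0.012 (edgeR adjusted p 0.940).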

How the data were processed

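Total RNA of 6 cultures was made into TruSeq stranded mRNA libraries. The authors deposited whole-number read counts per gene, tied by name to the STAR aligner, and a TPM table with equal library sums. The submitters' processing notes name STAR, DESeq2 and GRCh38/hg38. The counting settings are not given in the sources used here. Counts were analysed with edgeR 4.0.16 in R 4.3.3 (filterByExpr, TMM factors, glmQLFit, glmQLFTest, Benjamini-Hochberg, adjusted p under 0.05), with both groups and no covariate, and the same steps were tested on simulated data. CPM use TMM-scaled sizes. SEs were taken from the fold change and its F statistic. Ratios of paralogs came from the deposited TPM, with a two-sided exact permutation test (scipy). TPM depend on short noncoding RNAs, which held 34.4% to 64.4% of a library's TPM.

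Alternatives were DESeq2 1.42.0, RLE factors, library totals, no filter, at least 10 counts per library, a replicate block, thinned counts, limma 3.58.1 on log2(TPM + 1) and on TPM rescaled without 5 short noncoding RNAs (RPPH1, RN7SK and RN7SL1 to RN7SL3; pseudocounts 1 and 0.1), and each library left out. A fold change on the log2(TPM + pseudocount) scale understates the change of low genes. Named genes were the members, every wider Polycomb gene called, and the 3 largest called rises and falls of each target list. The members and lists were chosen with earlier results of these data known. GENCODE 29 (GRCh38) gave positions, exon lengths and transcripts, and RefSeq gave promoters. Protein sequences were not used here, and values of some single genes of the lists are not reported here. Floors of 3 counts and intervals at the 95% level cover counting error or replicate spread only.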

Additional observations from a re-analysis of the deposited data

How the results depend on the processing

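BMI1 kept its direction under every alternative, but its call was lost in the deposited log2(TPM + 1) (limma adjusted p 0.172) as well as without DOX-negative replicate 3 or DOX-positive replicate 1. The number of members past the threshold was therefore 0 in log2(TPM + 1), and from 0 to 1 when a library was left out. In log2(TPM + 1), 2 wider Polycomb genes, LCORL and MBD5, and 295 of all genes were called, of which 6.78% were higher, against 48.8% from counts, beside a median shift of -0.35. Library totals gave 39.3% higher. Leaving out a library gave from 9 to 12 wider Polycomb genes and from 2784 to 3645 of all genes. The log2(TPM + 1) setting reversed EZH1 (-0.24), EZH2 (-0.24), JARID2 (-0.21), RING1 (-0.25), CBX8 (-0.016), SCML1 (-0.14), LCOR (-0.032), PHC2 (-0.070), RRM2 (-0.19), RYBP (-0.067), YAF2 (-0.067) and KLF2 (-0.022). Without 1 library, PCGF2 ranged from -0.12 to 0.0030 and RNF2 from -0.16 to 0.029. The differences in the 3 paralog ratios ranged, without 1 library, from -0.053 to 0.12 for EZH2 to EZH1, from -0.51 to -0.43 for BMI1 to PCGF2 and from -0.21 to -0.077 for RNF2 to RING1.

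The replicate block called 3158 genes, 10 wider Polycomb genes and 1 member, BMI1. It lost FOXK1 (0.0737), RBBP4 (0.0533), YAF2 (0.0723), RRM2 (0.0512) and LHX4 (0.0575) of the genes named. Deviations of same-numbered libraries correlated at -0.070, -0.14 and -0.037, so the numbers gave no sign of pairing. Low counts limited the precision for CBX8, CBX2 and the named HOX genes. Over single genes with an adjusted p, 543 values under an alternative kept their direction and their side of the threshold, 76 kept their direction but lost their call, and 14 changed sign.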
